A study of Mus musculus with 6 samples.

Results

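Cornified envelope and epidermal desmosome genes were followed in 2 subsets of cortical thymic epithelial cells (cTEC). The 10 genes were *Ivl*, *Lor*, *Sprr1a*, *Cnfn*, *Krtdap*, *Sbsn*, *Ly6d*, *Dsg3*, *Dsc2* and *Dsp*. The list was chosen with earlier results of these data known. Its symbols were matched among the 39179 genes of the count table, and each matched 1 Ensembl gene. *Cxcl12*DsRed- cTEC were compared with *Cxcl12*DsRed+ cTEC, both sorted by flow cytometry as CD45-EpCAM1+UEA1-Ly51+ cells from untreated *Cxcl12*::DsRed knockin mice on a C57BL/6 background at 10 weeks of age. In these mice the red fluorescent protein DsRed reports expression of the chemokine gene *Cxcl12*, and both subsets carry the reporter allele. There were 3 experiments (A, B and C in the labels), and from each came a pair of libraries, 1 per subset, of poly(A) RNA amplified by a low-input method. How many mice went into a library is not stated in the methods. The Results text names 3 biological replicates, while a legend describes technical repeats of 1 experiment that stands for 3 biological replicates, so a p-value here sets the subsets against library-to-library spread that may be partly technical.

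The outer layers of the epidermis die in a controlled way. Keratinocytes that leave the basal layer make precursor proteins such as involucrin, loricrin and the small proline-rich proteins, and transglutaminases cross-link these under the plasma membrane into the cornified envelope, the tough shell that carries the lipid barrier of the skin. Desmosomes rivet neighbouring epithelial cells together. Their cadherins, the desmogleins and desmocollins, bind across the gap between cells, and desmoplakin ties them to keratin filaments inside. In the thymus, keratinised cells of this kind are known from the medulla, where terminally differentiated medullary TEC (mTEC) express involucrin and form Hassall's corpuscles, while desmosomes join epithelial cells throughout the organ.

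Genes of the cornified envelope lie close together in the genome, and the stretch before their start sites often holds a short TATA box and sites for the AP-1 transcription factors. Promoter sequence from RefSeq, on GRCm38.p6, was matched for 7 of the 10 genes (*Ivl*, *Lor*, *Sprr1a*, *Cnfn*, *Krtdap*, *Sbsn* and *Dsp*). Each was searched on both strands, over 300 bases that start 250 bases before the gene, for 4 motifs. TGANTCA, where N is any base, was searched as a loose form of the AP-1 site. The TATA box was searched as TATAAA. AACCGGTT is the site of the GRHL factors. TTGCNNCAA was searched under the name of the C/EBP factors, and no factor is read from it here. The 5 that hold a TGANTCA match are shown, since the matches are what these promoters share. Each is written 5′ to 3′ on the gene's strand, over the 160 bases from -150 to 9, where 0 is the first transcribed base. Capitals mark the TGANTCA and TATAAA matches, and no match overlapped another.
Ivl (chr3:92573726-92573885, minus strand): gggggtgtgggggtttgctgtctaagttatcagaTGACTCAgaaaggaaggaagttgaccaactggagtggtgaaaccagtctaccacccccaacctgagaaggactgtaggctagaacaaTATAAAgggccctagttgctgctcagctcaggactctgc
Lor (chr3:92083133-92083292, minus strand): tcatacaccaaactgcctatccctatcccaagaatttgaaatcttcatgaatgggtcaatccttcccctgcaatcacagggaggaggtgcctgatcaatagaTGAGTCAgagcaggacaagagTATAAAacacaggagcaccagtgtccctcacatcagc
Sprr1a (chr3:92485872-92486031, minus strand): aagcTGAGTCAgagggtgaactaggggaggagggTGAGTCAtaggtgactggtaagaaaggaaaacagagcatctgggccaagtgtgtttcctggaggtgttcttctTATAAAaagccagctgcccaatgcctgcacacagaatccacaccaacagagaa
Krtdap (chr7:30787755-30787914, plus strand): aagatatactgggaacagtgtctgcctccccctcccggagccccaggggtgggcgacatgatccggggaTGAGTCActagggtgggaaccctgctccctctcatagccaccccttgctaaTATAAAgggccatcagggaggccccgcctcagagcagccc
Sbsn (chr7:30751321-30751480, plus strand): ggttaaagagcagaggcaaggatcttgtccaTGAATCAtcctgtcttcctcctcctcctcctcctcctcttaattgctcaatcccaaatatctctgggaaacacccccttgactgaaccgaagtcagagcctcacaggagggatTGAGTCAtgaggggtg

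TGANTCA was found in 5 of the 7 promoters, against 7.81% of all 32851 promoters of this length and 5.65% of the 14409 promoters of tested genes. The matches began at -116 in *Ivl*, at -48 in *Lor*, at -146 and -116 in *Sprr1a*, at -81 in *Krtdap*, and at -119 and -6 in *Sbsn*. The match at -119 in *Sbsn* reads TGAATCA, while the others read TGAGTCA or TGACTCA. The match at -6 in *Sbsn* runs to base 0. TATAAA was found in 4 of the 7, beginning at -29 in *Ivl*, -27 in *Lor*, -43 in *Sprr1a* and -30 in *Krtdap*, against 13.6% of all promoters and 7.73% of those of tested genes. The promoters of *Cnfn* and *Dsp* held none of the 4 motifs. AACCGGTT and TTGCNNCAA were in 0 of the 7, against 0.146% and 2.08% of all promoters. A match describes these letters in this window only, since no binding was measured.

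The libraries held 34574900 to 44969195 counts in genes for *Cxcl12*DsRed- cTEC and 38875590 to 51042679 for *Cxcl12*DsRed+ cTEC. Levels are given as CPM, that is counts relative to library size, with library sizes scaled by TMM. The DsRed transcript stood at 21.5, 17.6 and 27.8 CPM in the *Cxcl12*DsRed- libraries of experiments A, B and C and at 860, 1322 and 2059 CPM in the *Cxcl12*DsRed+ libraries (p = 0.1 by a two-sided exact permutation test, the lowest value possible for 3 against 3). *Cxcl12* was also lower in every *Cxcl12*DsRed- library. Of 14 cTEC markers, *Cxcl12* included, 11 were lower across all 3 *Cxcl12*DsRed- libraries without overlap, where 9.32% of all tested genes were. Of these markers *Psmb11*, *Prss16* and *Cxcl12* fell by the test used throughout. This was the quasi-likelihood test of edgeR, adjusted by Benjamini-Hochberg over 15576 genes and read at 0.05. Markers of other cells were present under this sort: summed endothelial markers stood at 47.6 to 101 CPM in *Cxcl12*DsRed- cTEC, against 681 to 4802 CPM in *Cxcl12*DsRed+ cTEC, the highest being *Cxcl12*DsRed+ library C.

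Of the 7 envelope and keratinocyte genes, *Ly6d*, *Sbsn*, *Sprr1a* and *Cnfn* had higher levels in every *Cxcl12*DsRed- library, while *Ivl*, *Lor*, *Krtdap* and the desmosome genes *Dsg3*, *Dsc2* and *Dsp* had levels that overlapped between the subsets. *Ivl* did not pass the filter on low counts, and the other 9 genes were tested. None passed in either direction (0 of 9), against 0.449% of all tested genes that rose and 0.173% that fell, and 5 of the 9 had an unadjusted p below 0.05, against 11.8% of all tested genes. All 9 fold changes were positive, as were 51.3% of all, and their median was 2.63 on the log2 scale, against 0.02 over all tested genes. Every *Cxcl12*DsRed- library was above every *Cxcl12*DsRed+ library for 4 of the 10 genes (*Sprr1a*, *Cnfn*, *Sbsn* and *Ly6d*) and below for 0, where 9.73% of all tested genes were above and 9.32% below. Without *Cxcl12*DsRed- library B, left out after seeing the data, that count was 8 of 10, and the 4 added genes were *Ivl*, *Lor*, *Krtdap* and *Dsg3*. Library B was the lowest *Cxcl12*DsRed- library for each of them, so the count depends on which library is left out. Separation is also easier with fewer libraries, and the share over all genes was not computed for this setting. By edgeR's likelihood ratio test *Sprr1a*, *Cnfn*, *Sbsn* and *Ly6d* rose, where 3.53% of all genes did, and by DESeq2 *Krtdap* rose with them, where 4.52% did. In bulk RNA, fewer cells of a type and less RNA per cell cannot be told apart.

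**Figure D1:**
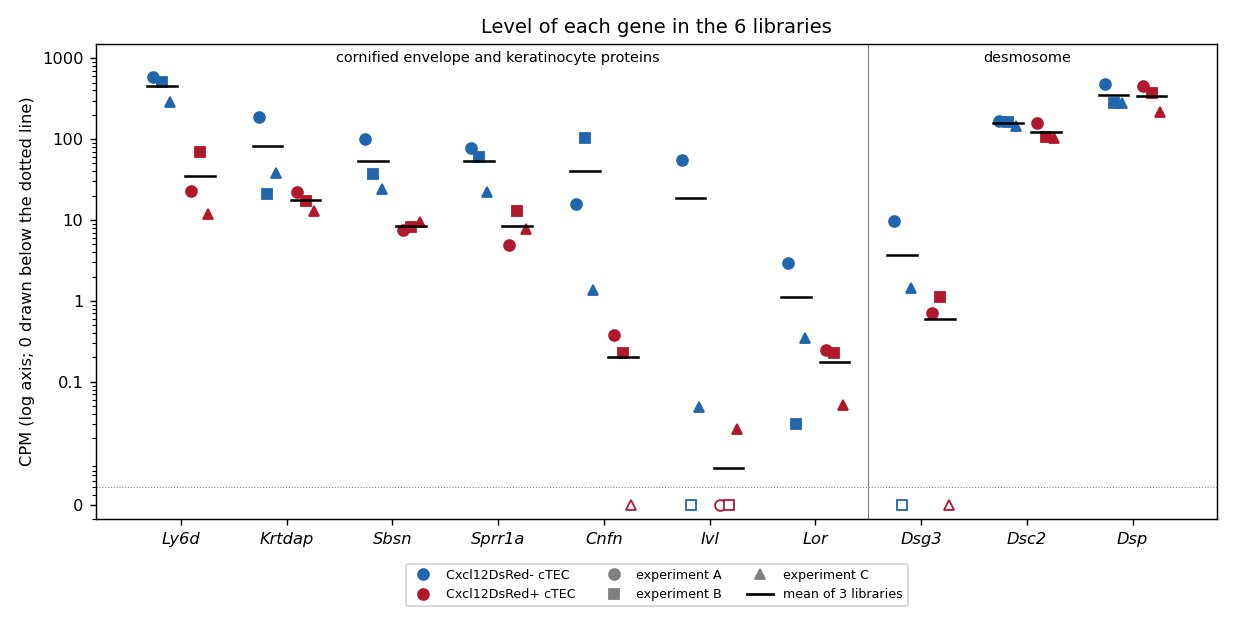
Level of each of the 10 genes in CPM on a log axis, with 1 point per library, blue for *Cxcl12*DsRed- cTEC and red for *Cxcl12*DsRed+ cTEC, the experiment as the marker shape, the mean of 3 libraries as a black line and values of 0 as open markers below the dotted line. The blue points lie above the red points without overlap for *Ly6d*, *Sbsn*, *Sprr1a* and *Cnfn*, and the colours mix for *Dsp* (mean 347 CPM in blue and 346 CPM in red).

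Among the envelope precursors, *Sprr1a* encodes a small proline-rich protein that transglutaminases cross-link into the envelope (chr3:92483952-92485895 on GRCm38, minus strand). It stood at 77.6, 59.5 and 21.9 CPM in *Cxcl12*DsRed- libraries A, B and C, and at 4.93, 13.1 and 7.68 CPM in *Cxcl12*DsRed+ libraries A, B and C. The groups did not overlap, the lowest *Cxcl12*DsRed- library being C. The log2 fold change was 2.63 (SE 0.59, 95% interval 1.24 to 4.02), with an adjusted p of 0.107 in edgeR's quasi-likelihood test.

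*Cnfn* encodes cornifelin, a small envelope component (chr7:25367620-25369724, minus strand). It had 680, 3402 and 55 counts in the *Cxcl12*DsRed- libraries, which is 15.7, 104 and 1.35 CPM, against 20, 11 and 0 counts, or 0.378, 0.229 and 0 CPM, in the *Cxcl12*DsRed+ libraries. *Cxcl12*DsRed- library B was far above the rest and library C was close to the *Cxcl12*DsRed+ level. The log2 fold change of 7.58 (SE 1.93, 95% interval 3.01 to 12.14) had an adjusted p of 0.146 in edgeR's quasi-likelihood test, and was 5.36 without *Cxcl12*DsRed- library B.

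*Ivl* encodes involucrin, an early scaffold of the envelope (chr3:92570902-92573735, minus strand). It had 2415, 0 and 2 counts in the *Cxcl12*DsRed- libraries and 0, 0 and 1 in the *Cxcl12*DsRed+ libraries, so that 99.9% of its CPM came from *Cxcl12*DsRed- library A, where it stood at 55.8 CPM. The filter asks for about 10 counts, scaled by library size, in at least 3 libraries. With no filter the adjusted p of *Ivl* was 0.293 in edgeR's quasi-likelihood test. *Lor* encodes loricrin, the main protein of the mature envelope (chr3:92080271-92083142, minus strand). It had 128, 1 and 14 counts in the *Cxcl12*DsRed- libraries and 13, 11 and 2 in the *Cxcl12*DsRed+ libraries, all at or under 2.96 CPM. The groups overlapped and the log2 fold change was 2.64 (SE 1.61, adjusted p = 0.631 in edgeR's quasi-likelihood test), which dropped to 0.09 without *Cxcl12*DsRed- library A. Involucrin and loricrin mRNA were at or near 0 in most libraries of both subsets.

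*Krtdap* and *Sbsn* encode keratinocyte differentiation-associated protein and suprabasin, both secreted by suprabasal keratinocytes. With *Dmkn*, which encodes dermokine, they are the 3 protein-coding genes of a stretch of 39627 bases on chromosome 7. *Sbsn* (chr7:30751471-30756134, plus strand) stood at 100.5, 37.0 and 24.5 CPM in the *Cxcl12*DsRed- libraries and at 7.48, 8.26 and 9.51 CPM in the *Cxcl12*DsRed+ libraries. The *Cxcl12*DsRed+ libraries lay close together and below every *Cxcl12*DsRed- library, and the log2 fold change was 2.68 (SE 0.57, 95% interval 1.34 to 4.02, adjusted p = 0.0959 in edgeR's quasi-likelihood test). *Krtdap* (chr7:30787896-30791097, plus strand) stood at 188, 20.8 and 37.7 CPM in the *Cxcl12*DsRed- libraries and at 22.4, 17.2 and 13.0 CPM in the *Cxcl12*DsRed+ libraries. Here *Cxcl12*DsRed- library B lay below *Cxcl12*DsRed+ library A. The log2 fold change was 2.23 (SE 0.81, adjusted p = 0.334 in edgeR's quasi-likelihood test), and 0.72 without *Cxcl12*DsRed- library A. *Dmkn*, between them, stood at 184, 58.5 and 32.5 CPM in the *Cxcl12*DsRed- libraries and at 10.2, 5.44 and 0 CPM in the *Cxcl12*DsRed+ libraries (adjusted p = 0.363 in the same test).

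*Ly6d* encodes a GPI-anchored surface protein of keratinocytes that is also known from early B-lineage cells (chr15:74762056-74763620, minus strand). It stood at 591, 502 and 285 CPM in the *Cxcl12*DsRed- libraries and at 23.1, 69.6 and 12.01 CPM in the *Cxcl12*DsRed+ libraries. Even the lowest *Cxcl12*DsRed- library was above the highest *Cxcl12*DsRed+ library, and the means were 459 ± 158 CPM in *Cxcl12*DsRed- cTEC, against 34.9 ± 30.6 CPM in *Cxcl12*DsRed+ cTEC (SD, n = 3 each). The log2 fold change was 3.72 (SE 0.70, 95% interval 2.06 to 5.37), with an adjusted p of 0.0776 in edgeR's quasi-likelihood test, the smallest of the 9 genes. Within experiments, the log2 difference of *Cxcl12*DsRed- from *Cxcl12*DsRed+ cTEC was 4.65 in A, 2.84 in B and 4.51 in C. Markers of B cells and myeloid cells summed to 555, 886 and 144 CPM in the *Cxcl12*DsRed- libraries and to 23.5, 55.2 and 84.4 CPM in the *Cxcl12*DsRed+ libraries, mostly from *Lyz2*. Of the B cell genes among them, *Ms4a1* reached at most 0.0304 CPM in *Cxcl12*DsRed- cTEC, against 1.75 CPM in *Cxcl12*DsRed+ cTEC, and *Cd79b* stood at 33.7, 33.2 and 6.91 CPM in the *Cxcl12*DsRed- libraries and at 0.265, 1.79 and 1.52 CPM in the *Cxcl12*DsRed+ libraries. Their part in the *Ly6d* value was not tested.

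**Figure D2:**
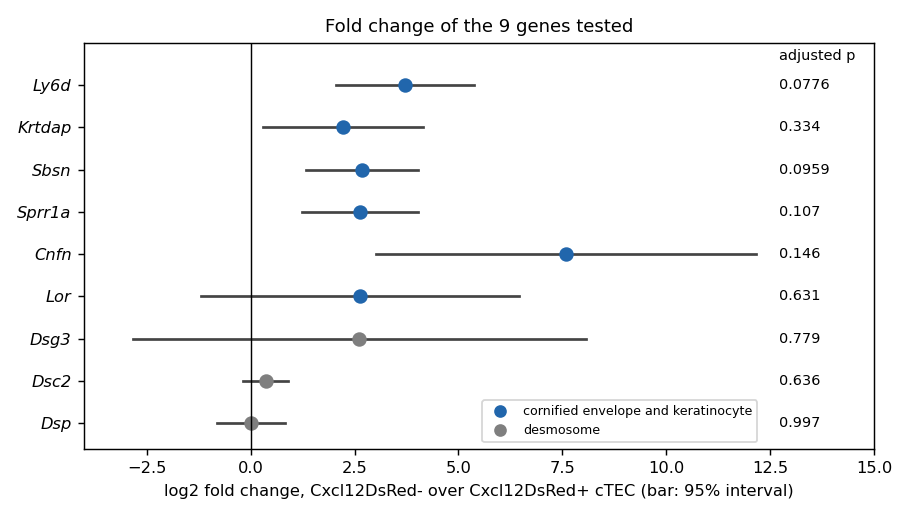
Log2 fold change of *Cxcl12*DsRed- over *Cxcl12*DsRed+ cTEC for the 9 genes tested, as a point with its 95% interval and the adjusted p of edgeR's quasi-likelihood test at the right. The intervals of *Ly6d*, *Sbsn*, *Sprr1a*, *Cnfn* and *Krtdap* lie above 0 before adjustment. Those of *Dsc2* (-0.17 to 0.90), *Dsp* (-0.81 to 0.82), *Lor* (-1.19 to 6.47) and *Dsg3* (-2.83 to 8.06) lie across it.

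Of the desmosome genes, *Dsp*, desmoplakin (chr13:38151294-38198577, plus strand), stood at 482, 277 and 283 CPM in the *Cxcl12*DsRed- libraries and at 454, 367 and 218 CPM in the *Cxcl12*DsRed+ libraries. *Cxcl12*DsRed- library A was the highest and *Cxcl12*DsRed+ library C the lowest, with the other 4 mixed, and the log2 fold change was 0.01 (SE 0.34, 95% interval -0.81 to 0.82, adjusted p = 0.997 in edgeR's quasi-likelihood test). The interval leaves room for a change of either sign, and the sign turned with the scaling and the filter. *Dsc2*, a desmocollin of simple and stratified epithelia (chr18:20030633-20059554, minus strand), stood at 167, 161 and 145 CPM in the *Cxcl12*DsRed- libraries and at 159, 106 and 102 CPM in the *Cxcl12*DsRed+ libraries. *Cxcl12*DsRed+ library A reached the *Cxcl12*DsRed- range, and the log2 fold change was 0.36 (SE 0.23, 95% interval -0.17 to 0.90, adjusted p = 0.636 in edgeR's quasi-likelihood test).

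*Dsg3*, the desmoglein of basal stratified epithelium (chr18:20510274-20547459, plus strand), was a low-count gene, with 417, 0 and 59 counts in the *Cxcl12*DsRed- libraries and 37, 53 and 0 in the *Cxcl12*DsRed+ libraries. Its levels were 9.63, 0 and 1.45 CPM in *Cxcl12*DsRed- cTEC, against 0.699, 1.11 and 0 CPM in *Cxcl12*DsRed+ cTEC, with either subset holding a library at 0. The log2 fold change of 2.61 (SE 2.30, 95% interval -2.83 to 8.06, adjusted p = 0.779 in edgeR's quasi-likelihood test) was 0.26 without *Cxcl12*DsRed- library A.

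Per kilobase of exon, *Ly6d* had the highest mean level of the 10 in both subsets, at 617 CPM per kb in *Cxcl12*DsRed- cTEC and 46.9 in *Cxcl12*DsRed+ cTEC. It came first in each *Cxcl12*DsRed- library, but among the *Cxcl12*DsRed+ libraries in B alone (93.5), since *Dsp* exceeded it in A (47.0 against 31.1) and in C (22.5 against 16.1). The mean of *Dsp* was 36.0 CPM per kb in *Cxcl12*DsRed- cTEC and 35.8 in *Cxcl12*DsRed+ cTEC. In *Cxcl12*DsRed- cTEC the means of *Krtdap* (121), *Sprr1a* (65.8) and *Cnfn* (55.9) were above that of *Dsp*, but *Cnfn* exceeded *Dsp* in library B alone and *Sprr1a* did not in library C. *Lor* and *Dsg3* had means under 1 CPM per kb in both subsets. The level of the mean library hid a wide spread. *Cxcl12*DsRed- library A was the highest of the 6 for 9 of the 10 genes, the exception being *Cnfn* in library B, while 21.1% of all tested genes were highest in library A.

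Summed over the 7 envelope and keratinocyte genes, the level was 1032, 723 and 370 CPM in the *Cxcl12*DsRed- libraries and 58.6, 109 and 42.2 CPM in the *Cxcl12*DsRed+ libraries. *Ly6d* made up most of it in each *Cxcl12*DsRed- library. Summed over the 3 desmosome genes it was 658, 438 and 430 CPM in the *Cxcl12*DsRed- libraries and 613, 474 and 320 CPM in the *Cxcl12*DsRed+ libraries, with overlap. Markers of tuft cells, chemosensory epithelial cells found among mTEC, summed to 2939, 849 and 535 CPM in the *Cxcl12*DsRed- libraries and to 43.7, 40.1 and 38.1 CPM in the *Cxcl12*DsRed+ libraries, in the same order of libraries within *Cxcl12*DsRed- cTEC. While 9.73% of all tested genes were above in every *Cxcl12*DsRed- library, all 12 tuft markers were. Of these *Trpm5*, *Gng13*, *Chat* and *Alox5ap* rose in edgeR's quasi-likelihood test, and in the fit blocked by experiment *Trpm5*, *Gng13* and *Avil* did (adjusted p = 0.0749 for *Chat* and 0.0515 for *Alox5ap* in that fit). Summed mTEC markers, mostly *Ccl21a*, *Krt5* and *Krt14*, overlapped at 7442 to 11198 CPM in *Cxcl12*DsRed- cTEC, against 3322 to 13623 CPM in *Cxcl12*DsRed+ cTEC. Of the 12, 2 were above in every *Cxcl12*DsRed- library. *Spib*, a transcription factor, stood at 310, 64.6 and 38.8 CPM in the *Cxcl12*DsRed- libraries and at 2.74, 6.69 and 2.42 CPM in the *Cxcl12*DsRed+ libraries. *Cd80*, a costimulatory ligand, stood at 6.70, 14.9 and 1.82 CPM in the *Cxcl12*DsRed- libraries and at 0.0189, 0 and 0 CPM in the *Cxcl12*DsRed+ libraries. Both rose in DESeq2 and in the likelihood ratio test, and not in edgeR's quasi-likelihood test. *Aire*, which drives self-antigen expression, stood at 0, 16.5 and 0.935 CPM in the *Cxcl12*DsRed- libraries and at 0, 4.98 and 0 CPM in the *Cxcl12*DsRed+ libraries. Summed fibroblast and pericyte markers stood at 4116 to 5069 CPM in *Cxcl12*DsRed- cTEC, against 2138 to 2271 CPM in *Cxcl12*DsRed+ cTEC. *Dcn* was the 1 of these 11 above in every *Cxcl12*DsRed- library, and without it the sums overlapped, at 812 to 1951 CPM in *Cxcl12*DsRed- cTEC, against 672 to 1505 CPM in *Cxcl12*DsRed+ cTEC. *Pdgfrb*, a pericyte receptor, stood at 11.3, 29.7 and 33.7 CPM in the *Cxcl12*DsRed- libraries and at 23.4, 28.2 and 170.5 CPM in the *Cxcl12*DsRed+ libraries, with overlap. Summed thymocyte markers stood at 45.5 to 112 CPM in *Cxcl12*DsRed- cTEC, against 38.1 to 317 CPM in *Cxcl12*DsRed+ cTEC. The part of these cells in the values of the envelope genes was not tested.

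**Figure D3:**
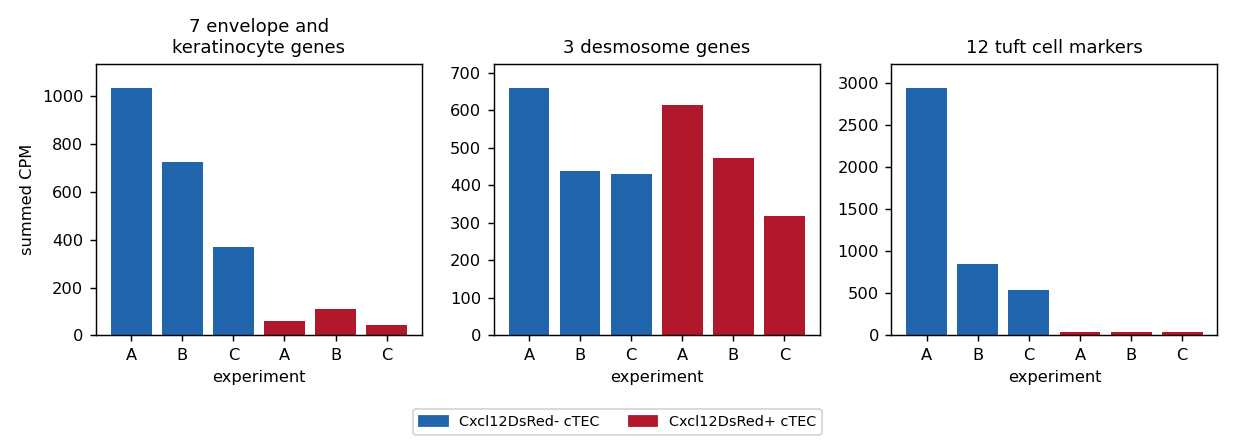
Summed CPM per library, 1 bar for each, for the 7 envelope and keratinocyte genes, the 3 desmosome genes and the 12 tuft cell markers, with blue bars for *Cxcl12*DsRed- cTEC and red bars for *Cxcl12*DsRed+ cTEC. The blue bars exceed the red bars for the envelope genes (370 to 1032 CPM against 42.2 to 109 CPM) and for tuft markers, and the bars of the desmosome genes overlap.

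The rest of the keratinocyte programme was read from lists of other genes with the same roles. The counts that follow stand beside 11.8% of all tested genes at an unadjusted p below 0.05 in edgeR's quasi-likelihood test, and beside 4.52% that rose and 2.42% that fell in DESeq2. Counts of genes above or below in every *Cxcl12*DsRed- library stand beside 9.73% of all tested genes above and 9.32% below. Of 49 further cornified envelope genes, 47 were found in the count table. Of those, 26 had no counts in any library and 8 were tested. In edgeR's quasi-likelihood test 0 passed, with 3 at an unadjusted p below 0.05, and in DESeq2 *Ppl* and *Scel* rose and *Cstb* fell. *Ppl*, periplakin, an envelope scaffold linked to desmosomes, stood at 55.4, 95.02 and 47.8 CPM in the *Cxcl12*DsRed- libraries and at 13.6, 12.6 and 6.08 CPM in the *Cxcl12*DsRed+ libraries (log2 fold change 2.62, SE 0.44, adjusted p = 0.0640 in edgeR's quasi-likelihood test). *Cstb*, cystatin B, a protease inhibitor, lay the other way, at 402, 732 and 328 CPM in the *Cxcl12*DsRed- libraries and at 949, 2218 and 1031 CPM in the *Cxcl12*DsRed+ libraries (adjusted p = 0.207 in the same test). *Scel*, sciellin, stood at 12.5, 3.92 and 2.07 CPM in the *Cxcl12*DsRed- libraries and at 0, 0.0209 and 0 CPM in the *Cxcl12*DsRed+ libraries (adjusted p = 0.0717), and *Evpl*, envoplakin, overlapped between subsets (adjusted p = 0.601). The chromosome 3 region from *S100a9* to *S100a10* (chr3:90692632-93564643), the epidermal differentiation complex, holds 58 protein-coding genes, and 29 of them had no counts. Of its 12 tested genes 0 passed in edgeR's quasi-likelihood test, with 2 at an unadjusted p below 0.05, and *Sprr1a* and *Pglyrp3*, a peptidoglycan recognition protein, rose in DESeq2. Genes of this region at 1 CPM or more numbered 17, 12 and 9 in the *Cxcl12*DsRed- libraries and 8, 10 and 8 in the *Cxcl12*DsRed+ libraries. The *Sprr2a* copies are nearly identical, so their counts are uncertain and are not described.

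Among 9 further secreted keratinocyte peptides and Ly6-family genes, 6 were tested and 4 lay above in every *Cxcl12*DsRed- library. In edgeR's quasi-likelihood test 0 passed, with 4 at an unadjusted p below 0.05, and in DESeq2 *Ly6g6c* and *Lypd3* rose. *Ly6g6c*, a Ly6-family gene, stood at 13.5, 21.7 and 1.55 CPM in the *Cxcl12*DsRed- libraries and at 0, 0.0209 and 0 CPM in the *Cxcl12*DsRed+ libraries (adjusted p = 0.0632). *Lypd3*, another, stood at 28.2, 51.2 and 4.45 CPM in the *Cxcl12*DsRed- libraries and at 0.832, 0 and 1.88 CPM in the *Cxcl12*DsRed+ libraries (adjusted p = 0.288). *S100a14*, an S100 calcium-binding protein, overlapped between subsets (adjusted p = 0.403). These adjusted p-values, and those that follow, are from edgeR's quasi-likelihood test.

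Of 26 enzymes and lipid barrier genes, 15 were tested and 0 passed in edgeR's quasi-likelihood test, with 6 at an unadjusted p below 0.05, while 5 rose in DESeq2. *Spink5*, whose protein LEKTI inhibits the kallikreins that cut desmosomal links, stood at 369, 298 and 91.9 CPM in the *Cxcl12*DsRed- libraries and at 2.82, 4.63 and 0.155 CPM in the *Cxcl12*DsRed+ libraries, with no overlap (log2 fold change 6.63, SE 1.20, adjusted p = 0.0717, and 0.0460 once experiment entered the fit as a block, where it rose). *Tgm1*, the transglutaminase that cross-links the envelope, stood at 42.3, 68.8 and 20.3 CPM in the *Cxcl12*DsRed- libraries and at 9.58, 10.7 and 9.23 CPM in the *Cxcl12*DsRed+ libraries (log2 fold change 2.15, SE 0.48, adjusted p = 0.104). *Asprv1*, the protease that processes filaggrin, and *Sult2b1*, which makes cholesterol sulphate, were also higher in every *Cxcl12*DsRed- library (adjusted p = 0.186 and 0.134). *Cers3*, a ceramide synthase of the skin barrier, lay the other way at 7.80 to 11.8 CPM in *Cxcl12*DsRed- cTEC, against 17.0 to 24.6 CPM in *Cxcl12*DsRed+ cTEC (adjusted p = 0.320).

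Of 13 further desmosome genes, 8 were tested and 0 passed in edgeR or DESeq2, 1 of them with an unadjusted p below 0.05, and their median log2 fold change was 0.05. *Dsc3*, a desmocollin, stood at 368, 314 and 440 CPM in the *Cxcl12*DsRed- libraries and at 460, 287 and 196 CPM in the *Cxcl12*DsRed+ libraries (adjusted p = 0.872). *Dsg2*, the desmoglein of simple epithelia, stood at 90.2, 85.9 and 47.8 CPM in the *Cxcl12*DsRed- libraries and at 54.0, 33.5 and 26.3 CPM in the *Cxcl12*DsRed+ libraries (adjusted p = 0.369). *Perp*, a membrane protein of desmosomes, was abundant in both subsets, at 635 to 871 CPM in *Cxcl12*DsRed- cTEC, against 606 to 1096 CPM in *Cxcl12*DsRed+ cTEC (adjusted p = 0.759), and *Pkp2*, plakophilin 2, was the single further desmosome gene above in every *Cxcl12*DsRed- library (4.02 to 8.34 CPM against 0 to 1.88 CPM, adjusted p = 0.612).

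All 20 regulators of keratinocyte differentiation were tested, with 7 above and 1 below in every *Cxcl12*DsRed- library (9.73% and 9.32% of all tested genes were). In edgeR's quasi-likelihood test 0 passed, with 8 at an unadjusted p below 0.05 (11.8% of all tested genes were), and in DESeq2 6 rose and 1 fell (4.52% and 2.42% of all). *Elf3*, an ETS-family factor of epithelial differentiation, stood at 949, 376 and 153 CPM in the *Cxcl12*DsRed- libraries and at 40.9, 41.7 and 25.3 CPM in the *Cxcl12*DsRed+ libraries (adjusted p = 0.0709). *Ehf*, of the same family, stood at 267, 113 and 46.4 CPM in the *Cxcl12*DsRed- libraries and at 4.52, 4.59 and 0.490 CPM in the *Cxcl12*DsRed+ libraries (adjusted p = 0.0827, and 0.0387 with the block, where it rose). *Zfp750*, a factor of late differentiation, had an adjusted p of 0.1001, at 8.63 to 37.5 CPM in *Cxcl12*DsRed- cTEC, against 2.40 to 3.82 CPM in *Cxcl12*DsRed+ cTEC.

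Of 13 keratins 12 were tested and 1 passed. *Krt4*, a keratin of the suprabasal layers of internal stratified epithelia, stood at 66.2, 17.9 and 15.004 CPM in the *Cxcl12*DsRed- libraries and had no counts in the *Cxcl12*DsRed+ libraries (adjusted p = 0.0461). With a floor of 3 counts per library, its mean was at least 504-fold higher in *Cxcl12*DsRed- cTEC. Library A gave 66.8% of the *Cxcl12*DsRed- CPM, so the fold is smaller in libraries B and C. *Krt4* met the filter on low counts through its *Cxcl12*DsRed- libraries alone, as did *Scel* and *Ly6g6c*. Its fitted log2 fold change is not given, since with 0 counts in *Cxcl12*DsRed+ cTEC the size would rest on the prior count. The adjusted p of *Krt4* likewise sets its *Cxcl12*DsRed- libraries against a subset without any count. The call was lost in the blocked fit (adjusted p = 0.101) and without any single library (adjusted p = 0.0604 to 0.161). *Krt80* stood at 30.9, 14.6 and 3.84 CPM in the *Cxcl12*DsRed- libraries and at 0.926, 0.605 and 0.567 CPM in the *Cxcl12*DsRed+ libraries (adjusted p = 0.0923), *Krt6a* had an adjusted p of 0.265 and *Krt78* of 0.282. *Krt5* and *Krt14*, keratins of basal cells, overlapped between subsets (adjusted p = 0.962 and 0.665), as did *Krt10* and *Krt1* of the suprabasal epidermis (adjusted p = 0.989 and 0.905). These 4 were named after their values were seen.

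**Figure D4:**
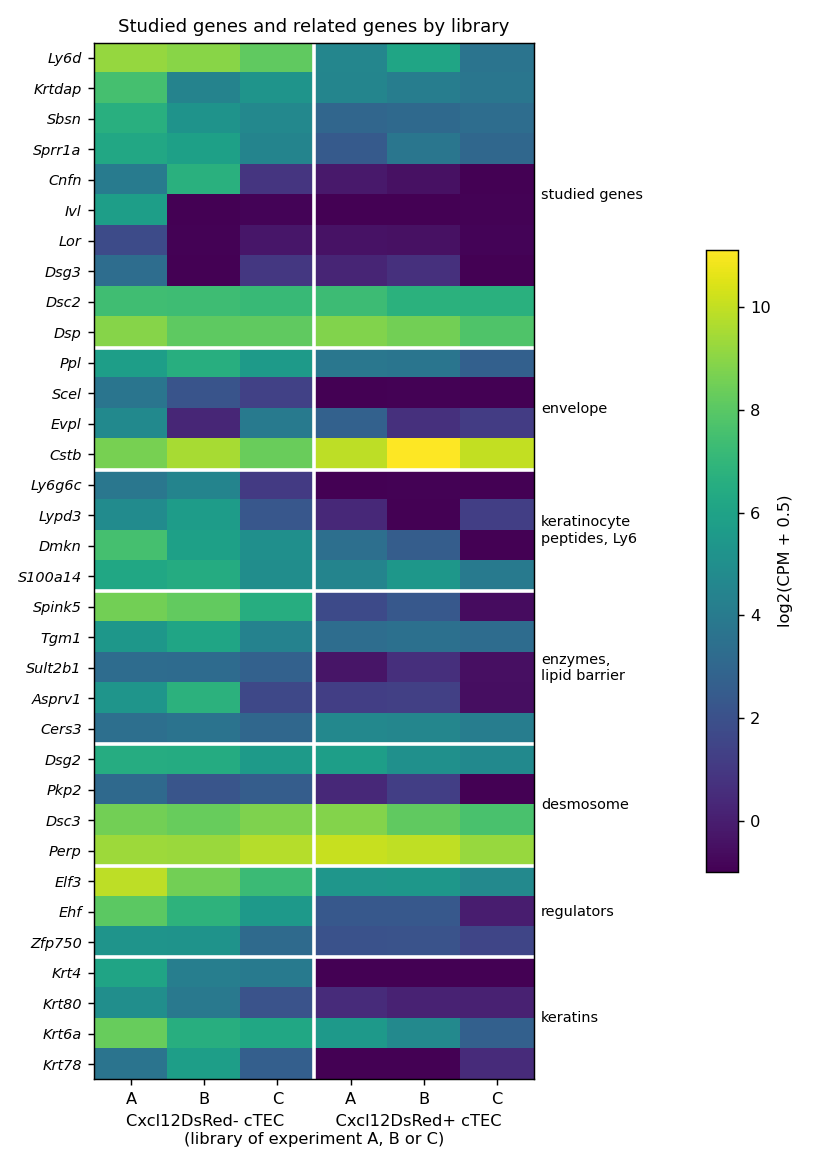
Heat map of log2(CPM + 0.5) for the 10 genes and related genes named in the text, 1 column per library with the 3 *Cxcl12*DsRed- columns at the left, grouped by role. The related genes were mostly picked for the smallest p in their list, so their rows do not stand for the whole lists. Most of these rows are brighter at the left, as in *Spink5* and *Elf3*, while *Cstb* and *Cers3* are brighter at the right. The rows of *Dsc2*, *Dsp*, *Dsc3* and *Perp* are even.

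The genes whose pattern over the 6 libraries was most like the mean of the 9 tested genes were *Arhgap1* (Pearson r 0.997), *Cyfip2* (0.996), *5830444B04Rik* (0.991), *Ggps1* (0.990) and *Atp11a* (0.989), computed on log2 CPM, and 321 genes had an r above 0.9. For *Ly6d* alone they were *Cib2* (0.995), *Slco4a1* (0.993) and *Fgg* (0.993). With 6 points that share 2 subsets and 3 experiments, many genes reach such values, and r is given as a description. Among the 9 tested genes themselves, *Sprr1a* followed *Sbsn* (0.939) and *Ly6d* (0.937), and *Lor* followed *Krtdap* (0.966) and *Dsg3* (0.958). *Cnfn* and *Dsp* had an r of 0.0884.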

How the data were processed

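RNA was measured in 6 libraries of sorted cTEC, 3 per subset. Trimmomatic 0.36 (trimming), STAR 2.7.3a (alignment, mm10) and HTSeq 0.12.4 (counting by gene) were the authors' tools, and the deposited values are unnormalised whole-number counts. The sources used here do not give the annotation release or whether strand was used. Of 39277 entries, 92 spike-ins (0 counts), 5 HTSeq summaries and 1 reporter entered neither library sizes nor tests. Reads in no gene came to 5.87% to 9.35% of the counts in genes, ambiguous reads to 1.21% to 1.38% and reads aligned to several places to 5.61% to 9.07%. Symbols and positions came from GENCODE M21 on GRCm38, which held 37693 of the 39179 IDs, and promoter sequences from RefSeq. *Sbsn* overlaps *Tmem147os* and *Dsp* overlaps *Gm10129* in that annotation, and neither has an entry among the counts.

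The subsets were compared in edgeR 4.0.16 under R 4.3.3 (filterByExpr with a minimum count of 10, TMM, quasi-likelihood test, prior count 0.125, Benjamini-Hochberg adjustment at 0.05 over 15576 genes), checked on simulated data. The alternatives were a likelihood ratio test, DESeq2 1.42.0, other scalings and filters, the experiment as a block, and leaving out libraries. The labels give each experiment letter to 1 library of either subset. These were taken as a pair in the blocked fit, and the main test had no term for the experiment. Deviations from the subset means correlated at 0.0296, 0.0892 and 0.0810 within experiments A, B and C, and at -0.111 to 0.00632 between them. No libraries were duplicates (chi-square per degree of freedom 166 to 717). The 10 genes, the gene lists and the tests were chosen with earlier results of these data known. From each keratinocyte list the text names the genes that passed or, where fewer than 4 did, the 4 with the smallest p, and genes that lay the other way without overlap. A single gene that this rule selects is not reported here. Intervals and floors cover counting and library spread only, since amplified reads are not independent molecules. Plots were drawn with matplotlib.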

Additional observations from a re-analysis of the deposited data

How the results depend on the processing

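The 9 genes tested had 142 alternative fold changes, of which 126 kept their direction and their side of the threshold, 9 passed it and 7 turned in sign, all 7 of them *Dsp*. The genes that passed numbered 4 in edgeR's likelihood ratio test and 5 in DESeq2, against 0 in the quasi-likelihood test and in each other alternative. With the experiment as a replicate block 0 of the 10 genes and 73 of all genes passed, and the block changed no call on them; of the related genes and tuft markers named it changed that of *Krt4*, *Spink5*, *Ehf*, *Chat*, *Alox5ap* and *Avil*. Of all genes, 97 passed, against 880 in the likelihood ratio test, 1081 in DESeq2 (532 genes had no adjusted p), 168 with no filter, 0 without experiment A, 0 without experiment B and 35 without experiment C. Leaving out 1 library gave 0 to 139 genes: 139 without *Cxcl12*DsRed- library C, 1 without *Cxcl12*DsRed+ library C and 0 without any of the other 4, where 1460 to 1850 genes had an unadjusted p below 0.05 in edgeR's quasi-likelihood test. The count of the 10 genes above in every *Cxcl12*DsRed- library was 4 to 8 with 1 library left out, an alternative chosen after seeing the data, and 8 was without *Cxcl12*DsRed- library B. The same share over all genes was not computed with a library left out. The log2 fold change of *Dsp* was -0.0493 with library totals only, -0.0335 with no filter, -0.00563 with a mean of at least 1 CPM, -0.0950 without experiment A, -0.14 without experiment C and -0.33 to 0.20 with 1 library left out. The cause was not tested. The summed level and the reporter check, under scalings and left-out libraries also chosen after seeing the data, moved by less than the spread between libraries. With 3 libraries a subset, *Ivl*, *Lor* and *Dsg3* rest on few counts or 1 library, and no difference in them was detectable against the spread between libraries.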

Other observations

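Several late keratinocyte genes, chosen here after their values were seen, were read almost wholly in *Cxcl12*DsRed- libraries A and B and were not tested. *Rptn*, repetin, stood at 13.5, 66.9 and 0.197 CPM in *Cxcl12*DsRed- libraries A, B and C and at 0.0567, 0 and 0.0773 CPM in the *Cxcl12*DsRed+ libraries. *Crct1* stood at 17.0, 17.7 and 0 CPM in the *Cxcl12*DsRed- libraries and at 0.113, 0.104 and 0 CPM in the *Cxcl12*DsRed+ libraries. *Hrnr*, hornerin, stood at 15.4, 9.80 and 0 CPM in the *Cxcl12*DsRed- libraries and had no counts in the *Cxcl12*DsRed+ libraries. *Cdsn*, corneodesmosin, stood at 25.6, 4.90 and 0.0492 CPM in the *Cxcl12*DsRed- libraries and at 0, 0.0209 and 0 CPM in the *Cxcl12*DsRed+ libraries. *Ivl*, by contrast, had 0 counts in *Cxcl12*DsRed- library B, where *Rptn* and *Cnfn* were highest. Other untested genes, on chromosome 3, lay the other way. *Crnn* had no counts in the *Cxcl12*DsRed- libraries and 21, 0 and 94 in *Cxcl12*DsRed+ libraries A, B and C. *Lce1m* had 1 count in *Cxcl12*DsRed- cTEC, against 54 in *Cxcl12*DsRed+ cTEC. *Kprp* had 0 against 51 and *Sprr2f* 0 against 26, and for each of these the *Cxcl12*DsRed+ counts came from 1 library.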
